A study of Mus musculus with 3 samples.

Results

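Hox genes encode homeodomain transcription factors that stand in 4 genomic clusters, and 38 of them are described here out of 21887 protein-coding genes. They were chosen by name: 10 genes of the Hoxa cluster on chromosome 6, 10 of Hoxb on chromosome 11, 9 of Hoxc on chromosome 15 and 9 of Hoxd on chromosome 2. The assay was ATAC-seq: a transposase inserts sequencing adapters where DNA is accessible, and enriched stretches are listed as peaks. Each library came from 50000 hematopoietic stem cells (HSCs) that had been sorted from adult mice given poly(I:C) and then grown in StemSpan SFEM medium. One library was made after 200 nM AZD2014, an inhibitor that blocks the mTOR kinase at its ATP site, one after 1 µM rapamycin, which binds mTOR together with FKBP proteins, and one after the solvent DMSO. All 3 groups shared the genotype Mx1-Cre-/-;mTORflox/flox. The cells thus carried floxed mTOR alleles without the Cre recombinase that would delete them, and the labels call them mTOR WT. The sources used here give neither the time under drug nor the number of animals.

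With 1 library per condition there was no replicate check. No p-value is given, since the variation between repeat libraries is not known. Intervals on counts and shares are exact 95% intervals (Poisson for counts, binomial for shares) and cover counting error only. Those on shares treat genes as independent, although neighbors in a cluster can share a peak. The AZD2014 list held 21321 peaks and the rapamycin list 18233, and the DMSO list was the shortest. The depth of the libraries is unknown, so a missing peak means only that none was listed at the threshold the authors used. Every score below is the authors' own value for a peak, and no list goes below 50. Scores serve here to rank peaks inside a list, because nothing in the files shows that the 3 lists share a scale. Peaks at gene ends were found at 9 of 15 HSC and progenitor marker genes under AZD2014, 7 under rapamycin and 8 under DMSO. These shares of 60%, 46.7% and 53.3% were near the 49.5%, 46.9% and 46% of all protein-coding genes. The counts therefore do not set these markers apart from other genes. Kit, Mecom, Hlf, Meis1, Runx1, Tal1 and Lyl1 were marked in all 3 lists, while Gata2, Fli1, Erg, Procr, Slamf1 and Ly6a were marked in none. Of 5 mast cell and basophil markers, 0, 1 and 0 were marked under AZD2014, rapamycin and DMSO, and of 5 neutrophil and monocyte markers 0, 2 and 0. Of 8 non-blood markers the numbers were 2, 1 and 1. The part of other cell types in the Hox values was not tested.

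Within a cluster, gene order follows the paralog number, from group 1 at one end to group 13 at the other. In the embryo, low-numbered genes are switched on earlier and farther to the head, and high-numbered genes later and farther to the tail. In blood, Hoxa and Hoxb genes are those best known from stem cells: Hoxa9 supports HSC expansion and is a driver of leukemia, and raised Hoxb4 expands HSCs in culture. Hox proteins bind DNA together with Meis and Pbx cofactors. MLL complexes keep Hox genes active, and Polycomb complexes keep them silent.

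Each cluster was taken from its first to its last described gene with 20 kb on either side. The Hoxa window was 138.464 kb long and lay at chromosome 6, 52142417 to 52280880 (mm10). The Hoxb window was chromosome 11, 96174316 to 96388254. The Hoxc window was chromosome 15, 102901131 to 103056856, and the Hoxd window chromosome 2, 74648225 to 74785142. A gene was called marked when a peak overlapped the kilobase on either side of one of its ends.

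The following 5 start regions carry the sequences that bear on the differences between the lists. For Hoxa5, Hoxb4, Hoxa3 and Hoxa13, a peak of one drug list covered bases just before the annotated start that no DMSO peak covered. For Hoxd3os1, a non-coding gene inside the Hoxd cluster, peaks of both drug lists did so. The 250 bases before each start are given 5′ to 3′ on the strand of the gene (RefSeq, GRCm38.p6), with the bases inside the named drug's peak in capitals.

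Hoxa5 (chr6:52204588-52204837, minus strand, AZD2014 peak): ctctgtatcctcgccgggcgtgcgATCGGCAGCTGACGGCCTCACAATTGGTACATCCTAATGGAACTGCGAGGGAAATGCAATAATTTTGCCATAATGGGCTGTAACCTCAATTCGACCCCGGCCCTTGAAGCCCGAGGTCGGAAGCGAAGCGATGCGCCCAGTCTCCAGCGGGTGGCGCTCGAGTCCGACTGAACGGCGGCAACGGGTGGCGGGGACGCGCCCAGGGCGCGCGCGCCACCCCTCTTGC
Hoxb4 (chr11:96318017-96318266, plus strand, AZD2014 peak): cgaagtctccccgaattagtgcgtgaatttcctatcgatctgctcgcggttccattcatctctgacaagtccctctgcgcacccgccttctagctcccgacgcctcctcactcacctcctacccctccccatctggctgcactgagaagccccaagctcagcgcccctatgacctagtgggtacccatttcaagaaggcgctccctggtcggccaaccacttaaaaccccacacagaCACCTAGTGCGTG
Hoxa3 (chr6:52213068-52213317, minus strand, rapamycin peak): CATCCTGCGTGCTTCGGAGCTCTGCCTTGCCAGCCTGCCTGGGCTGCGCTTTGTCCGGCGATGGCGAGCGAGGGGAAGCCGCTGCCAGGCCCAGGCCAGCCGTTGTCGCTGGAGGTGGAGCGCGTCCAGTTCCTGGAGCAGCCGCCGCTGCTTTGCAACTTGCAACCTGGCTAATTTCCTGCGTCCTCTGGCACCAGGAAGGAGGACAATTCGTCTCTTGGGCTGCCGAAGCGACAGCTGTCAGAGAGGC
Hoxa13 (chr6:52260881-52261130, minus strand, rapamycin peak): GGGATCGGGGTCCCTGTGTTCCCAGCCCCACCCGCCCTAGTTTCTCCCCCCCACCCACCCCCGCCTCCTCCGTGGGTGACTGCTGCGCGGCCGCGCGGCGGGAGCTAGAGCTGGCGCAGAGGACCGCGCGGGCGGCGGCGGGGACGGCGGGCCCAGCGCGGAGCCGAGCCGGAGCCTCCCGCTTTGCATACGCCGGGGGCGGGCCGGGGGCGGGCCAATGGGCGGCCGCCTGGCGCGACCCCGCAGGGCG
Hoxd3os1 (chr2:74716131-74716380, minus strand, rapamycin peak): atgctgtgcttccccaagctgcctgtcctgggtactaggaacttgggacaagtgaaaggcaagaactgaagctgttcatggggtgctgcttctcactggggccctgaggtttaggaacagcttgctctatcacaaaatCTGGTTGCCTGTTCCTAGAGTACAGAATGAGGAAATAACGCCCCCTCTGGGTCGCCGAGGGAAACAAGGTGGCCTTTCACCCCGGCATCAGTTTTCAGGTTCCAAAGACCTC

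The capitals show how much of each stretch lay in a peak. At Hoxa5 the AZD2014 peak held 226 of the 250 bases. At Hoxb4 it held the last 13, and the remainder of that peak lay inside the gene. At Hoxa3 and Hoxa13 the rapamycin peak held all 250 bases. At Hoxd3os1 the AZD2014 peak held 105 bases and the rapamycin peak 112, with almost the same edges in both lists.

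Few Hox genes were marked in any list. Marked genes numbered 8 of 38 under AZD2014 (21.1%, interval 9.55 to 37.3), 5 under rapamycin (13.2%, 4.41 to 28.1) and 3 under DMSO (7.89%, 1.66 to 21.4). Over all protein-coding genes the marked shares were 49.5% under AZD2014, 46.9% under rapamycin and 46% under DMSO. The upper end of the Hox interval lay below the share of all genes in each list. Hox genes are short, with a median length of 3.72 kb against 17.2 kb for all genes, and neighbors can share a peak. The part of length in these shares was not tested. Hoxa4 and Hoxb4 were marked in all 3 lists, which is 5.26% of the Hox genes against 43.5% of all genes. With 8 others marked in 1 or 2 lists, 10 Hox genes (26.3%, against 51.5% of all genes) had a gene-end peak in at least 1 list. The 8 were Hoxa3, Hoxa5, Hoxa6, Hoxa7, Hoxa9, Hoxa10, Hoxa13 and Hoxc6.

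The other 28 genes had no gene-end peak in any list. In the Hoxa cluster these were Hoxa2 and Hoxa11. In Hoxb they were Hoxb1, Hoxb2, Hoxb3, Hoxb5, Hoxb6, Hoxb7, Hoxb8, Hoxb9 and Hoxb13. In Hoxc they were Hoxc4, Hoxc5, Hoxc8, Hoxc9, Hoxc10, Hoxc11, Hoxc12 and Hoxc13. All 9 Hoxd genes, Hoxd1, Hoxd3, Hoxd4, Hoxd8, Hoxd9, Hoxd10, Hoxd11, Hoxd12 and Hoxd13, belonged to this set.

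**Figure D1:**
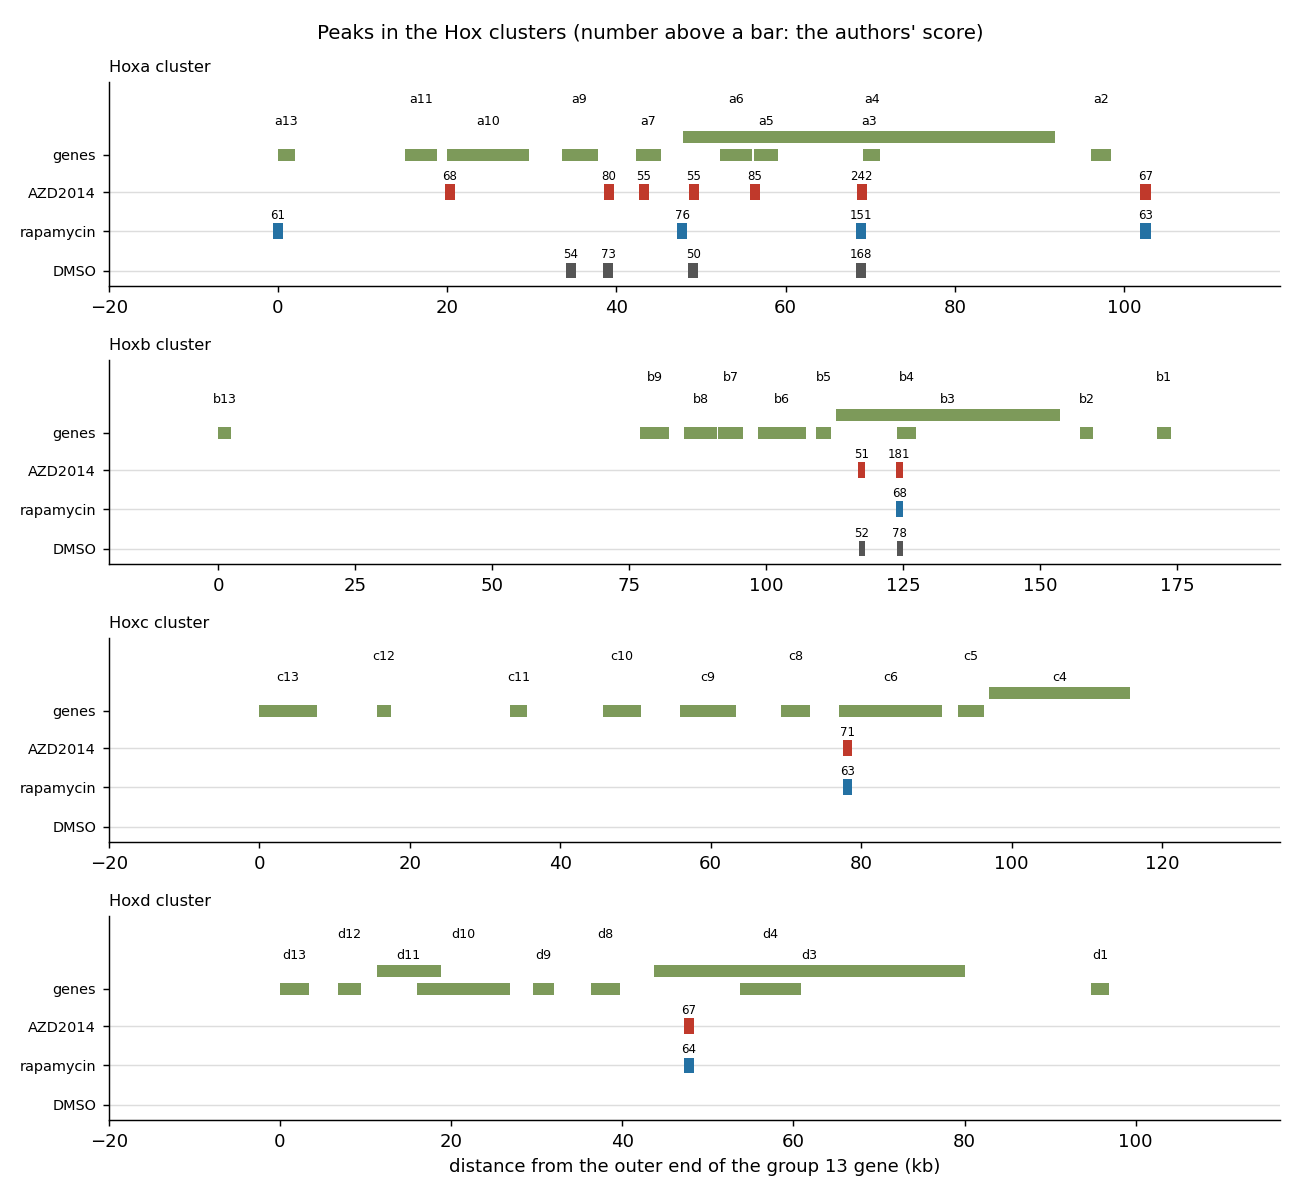
Peaks in the 4 Hox cluster windows, by distance from the outer end of the group 13 gene (kb), with gene bodies in green and a row of bars for AZD2014, rapamycin and DMSO. Each bar is a peak drawn 1.2 kb wide for visibility, and the number above it is the authors' score rounded to a whole number. Hoxa holds 7 of 11 AZD2014 peaks, 4 of 7 rapamycin peaks and 4 of 6 DMSO peaks, and the Hoxc and Hoxd rows for DMSO are empty.

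The Hoxa cluster held most of the peaks. Over the 4 windows there were 11 peaks under AZD2014 (interval 5.49 to 19.7), 7 under rapamycin (2.81 to 14.4) and 6 under DMSO (2.2 to 13.1). The intervals overlapped. Of these peaks, 7 under AZD2014, 4 under rapamycin and 4 under DMSO lay in Hoxa. They covered 4497 bp under AZD2014, 2535 bp under rapamycin and 2302 bp under DMSO. Hoxb held 2, 1 and 2 peaks in the lists of AZD2014, rapamycin and DMSO. Hoxc held 1, 1 and 0, and Hoxd likewise 1, 1 and 0.

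The clusters were also set beside equally long windows around the midpoint of every protein-coding gene. Windows as long as Hoxa held a median of 2 peaks in each list. At least as many peaks as in Hoxa were found in 9.2% of those windows under AZD2014, 26.6% under rapamycin and 25.6% under DMSO. Windows as long as Hoxb held a median of 3 peaks in each list, and 70.9%, 80.1% and 65.8% held at least as many as Hoxb under AZD2014, rapamycin and DMSO. A window as long as Hoxc or Hoxd with no DMSO peak was no rarity, at 25.7% and 27.6% of all such windows.

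The lists differ in length, and a longer list reaches to lower ranks. With every list shortened to as many peaks as the DMSO list has, the 4 windows held 7 peaks under AZD2014, 7 under rapamycin and 6 under DMSO. Hoxa then held 5, 4 and 4, and Hoxb 1, 1 and 2. Hoxc held 1 under AZD2014 and 1 under rapamycin, and Hoxd held 1 under rapamycin and 0 under AZD2014. The lowest score kept in the shortened AZD2014 list was 67.12. The AZD2014 peaks near that limit had scores of 67.99 at Hoxa10 and 67.24 at Hotairm1, both kept, and 66.78 at Hoxd3os1, which was dropped. At equal lengths the number of marked Hox genes became 7 under AZD2014, 5 under rapamycin and 3 under DMSO, against 47%, 46.3% and 46% of all genes.

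Hoxa4, from the low-numbered end of its cluster, had the highest-scoring Hox peak in every list. Its peak scored 241.75 under AZD2014, 150.65 under rapamycin and 167.89 under DMSO. In rank this was place 6656 of 21321 under AZD2014 (31.2% down the list), 8033 of 18233 under rapamycin (44.1%) and 6449 under DMSO (37.5%). The 3 peaks overlapped at the end of Hoxa4 (chromosome 6, 52189682 to 52191703) and within the annotated body of Hoxa3, which spans Hoxa4, Hoxa5 and Hoxa6. At such ranks a partner was usual: among the 1001 DMSO peaks closest in rank, 99.8% overlapped an AZD2014 peak and 99.6% a rapamycin peak.

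Hoxb4 (chromosome 11, 96318267 to 96321638) was the other gene marked in all 3 lists. Its peak scored 180.98 under AZD2014, 67.77 under rapamycin and 78.22 under DMSO. It stood at 40.2% of the AZD2014 list, 78.6% of the rapamycin list and 71.3% of the DMSO list, so it was in the upper 50% under AZD2014 and in the lower 50% under rapamycin and DMSO. The AZD2014 peak was also wider, at 837 bp against 460 bp under rapamycin and 636 bp under DMSO. Over whole lists the median peak width was 700 bp under AZD2014, 710 bp under rapamycin and 610 bp under DMSO. The AZD2014 peak at Hoxb4 ran from 96318254, before the start, to 96319090. The rapamycin and DMSO peaks there began 159 and 167 bp after the start. The AZD2014 peak thereby came within 1 kb of Mir10a, a microRNA gene upstream of Hoxb4, which had no gene-end peak in the other two lists.

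**Figure D2:**
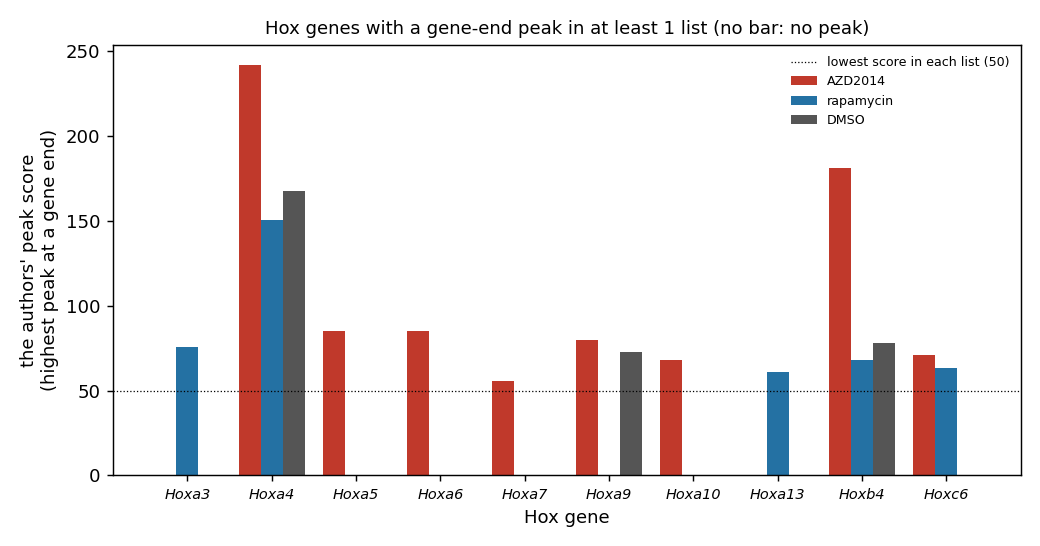
The authors' score (vertical axis) of the highest-scoring gene-end peak of each Hox gene marked in at least 1 list, for AZD2014, rapamycin and DMSO, 1 library each. A missing bar means that no peak was listed. Hoxa4 and Hoxb4 have bars in all 3 lists, and the remaining bars lie between 55.36 and 85.01.

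Under AZD2014 and not under DMSO, 5 Hox genes were marked, and 0 the reverse (against 1.09% of all genes). They were Hoxa5, Hoxa6, Hoxa7, Hoxa10 and Hoxc6, or 13.2% of the Hox genes (interval 4.41 to 28.1) against 4.63% of all genes, so the interval included the background share. In Hoxa, 3 of them belong to the middle groups. A single peak (chromosome 6, 52204292 to 52204813, score 85.01) marked both Hoxa5, which is needed for lung and axial skeleton development, and its neighbor Hoxa6. That peak spanned the Hoxa5 start and ended 45 bp short of Hoxa6. The Hoxa7 peak (52217345 to 52217961, score 55.36) lay inside the gene, 612 bp from the start. The Hoxa10 peak (52240358 to 52240800, score 67.99) also lay inside its gene, 54 bp from the start at 52240854. Hoxa10 has another annotated start at 52234939. The start window of neither was overlapped by a peak in any list. Marked under AZD2014 alone were 4 of the 5 (10.5%, interval 2.94 to 24.8, against 2.43% of all genes), since Hoxc6 was also marked under rapamycin. Hoxa10, like Hoxa9, is a posterior-group gene known from blood progenitors and leukemia.

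None of those 3 Hoxa peaks had a partner in the rapamycin or DMSO list. Absence of a partner was common at these ranks. Of the 1001 AZD2014 peaks closest in rank to the Hoxa5 peak, 59.2% had a rapamycin partner and 48.0% a DMSO partner. Around the Hoxa10 peak the shares were 40.8% and 34.1%, and around the Hoxa7 peak 24.2% and 21.4%. With equal list lengths the Hoxa7 peak was dropped, which left 4 genes (10.5%, interval 2.94 to 24.8) against 3.03% of all genes, and again 0 the reverse (1.96%). With lists limited to their upper 50% of scores, marked Hox genes were Hoxa4 and Hoxb4 under AZD2014, Hoxa4 under rapamycin and Hoxa4 under DMSO, against 40%, 36.5% and 34.8% of all genes. Hoxb4 was then the 1 Hox gene marked under AZD2014 and not under DMSO (2.63% against 5.86% of all genes), and also the 1 not under rapamycin (against 4.3%). The other contrasts at that limit held 0 Hox genes, against 0.64% of all genes for DMSO and not AZD2014, 3.62% for rapamycin and not DMSO, 1.85% for DMSO and not rapamycin, and 0.845% for rapamycin and not AZD2014.

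Hoxa9, an HSC and leukemia regulator, was marked under AZD2014 and DMSO and not under rapamycin. A region between Hoxa7 and Hoxa9 scored 80.06 under AZD2014 (52221320 to 52222223) and 72.92 under DMSO (52221531 to 52222142). The AZD2014 peak came within 874 bp of the low-coordinate end of Hoxa9 at 52223097, and the DMSO peak within the same 1 kb. That end is the 3′ end, since the gene lies on the minus strand. DMSO had a second peak inside Hoxa9 (52225948 to 52226550, score 53.81), 820 bp from the annotated start, with no partner in either drug list. Around it in rank, 57.6% of DMSO peaks had an AZD2014 partner and 43.7% a rapamycin partner. The nearest rapamycin peak was 9577 bp from a Hoxa9 end. Hoxa9 was thus marked at both ends in the DMSO list and at its 3′ end alone in the AZD2014 list.

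Under rapamycin and not under DMSO, 3 Hox genes were marked (7.89%, interval 1.66 to 21.4) against 3.05% of all genes, which the interval included. They were Hoxa3, Hoxa13 and Hoxc6. The reverse was seen at 1 gene, Hoxa9 (2.63% against 2.09%). The Hoxa3 peak (52212725 to 52213520, score 75.54) spanned the start that the table gives for this gene, which lies between Hoxa6 and Hoxa7. Hoxa3 is needed for thymus and parathyroid development. The non-coding genes Hoxaas3 and Mira also have an end within 1 kb of that peak. The Hoxa13 peak (52260677 to 52261138, score 61.14) spanned the start of Hoxa13, a gene of the limb ends and the urogenital tract. It was the single peak at any group 11, 12 or 13 gene of the 4 clusters in the 3 lists.

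Neither the Hoxa3 nor the Hoxa13 peak had a partner under AZD2014 or DMSO, so both genes were marked under rapamycin alone (5.26%, interval 0.644 to 17.7, against 0.85% of all genes). No Hox gene was marked under DMSO alone (0.726% of all genes). Among the rapamycin peaks closest in rank to the Hoxa3 peak, 78.1% had an AZD2014 partner and 58.5% a DMSO partner. Near the Hoxa13 peak the shares were 62.5% and 38.8%. Both stayed in the list at equal lengths, where rapamycin had 3 Hox genes that DMSO lacked (7.89% against 2.66% of all genes) and DMSO had 1 that rapamycin lacked (2.63% against 2.34%).

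Between the drugs, 5 Hox genes were marked under AZD2014 and not rapamycin (13.2%, interval 4.41 to 28.1, against 3.79% of all genes), and 2 under rapamycin and not AZD2014 (5.26%, interval 0.644 to 17.7, against 1.21%). The first interval lay above the share of all genes and the second included it, but both treat genes as independent. Hoxa5 and Hoxa6 share a peak, so the counts behind the first are not independent. The first interval therefore does not show a difference from all genes. The genes of AZD2014 were Hoxa5, Hoxa6, Hoxa7, Hoxa9 and Hoxa10, and those of rapamycin Hoxa3 and Hoxa13. All 7 belong to Hoxa. At equal list lengths there were 4 (10.5%, interval 2.94 to 24.8, against 2.53%) and 2 (5.26% against 1.79%). The doses were 200 nM for AZD2014 and 1 µM for rapamycin, so these values stand side by side and do not compare the compounds at a matched dose. The comparisons of each drug with DMSO share the one DMSO library.

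In all, 3 regions were found in both drug lists and not under DMSO, each in a different cluster and each low in rank. They made up 21.4% of the 14 Hox regions, and this pattern held for 8.63% of the 24981 regions of the whole genome. At equal list lengths 2 of 13 Hox regions showed it, and the share of all regions was not computed there. At Hoxc6, a gene of the middle groups, the peak scored 70.79 under AZD2014 and 63.25 under rapamycin (union at chromosome 15, 102999114 to 102999598), 888 bp and 895 bp inside the gene. At the start of Hoxd3os1, within Hoxd3, the peak scored 66.78 under AZD2014 and 63.7 under rapamycin (chromosome 2, 74715770 to 74716242). At the ends of the non-coding genes Hotairm1 and Hotairm2, on the Hoxa2 side of Hoxa, it scored 67.24 under AZD2014 and 62.61 under rapamycin. Human HOTAIRM1 is known as a transcript of myeloid cells. In rank these 6 peaks lay between 78.0% and 83.5% of their lists. Of the AZD2014 peaks closest in rank to them, 33.1% to 38.8% had a DMSO partner, and of the rapamycin peaks 42.8% to 43.5%. Hoxc6 was the single Hox gene marked under both drugs and not DMSO (2.63%, against 2.2% of all genes), a share near the background.

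Merged over the lists, the peaks in the 4 windows formed 14 regions. Both Hoxa4 and Hoxb4 had a region of all 3 lists, which makes 2 of 14 (14.3%), against 54.7% of the 24981 regions of the whole genome. In 2 lists there were 6 regions. Of these, 3 (21.4%, against 8.63% of all regions) were in both drug lists and 3 (21.4%, against 5.63%) in the AZD2014 and DMSO lists. In 1 list there were 6, with 3 in the AZD2014 list (21.4%, against 16% of all regions), 2 in the rapamycin list (14.3%, against 7.42%) and 1 in the DMSO list (7.14%, against 5.8%). The AZD2014 and DMSO pair shared weak regions in Hoxa3 (scores 55.06 and 50.15) and in Hoxb3 (51.26 and 52.45), beside that near Hoxa9. No region was shared by rapamycin and DMSO without AZD2014, a pattern of 1.8% of all regions. With equal list lengths 13 regions remained, of which 2 were in all 3 lists, 3 in 2 lists and 8 in 1 list. These counts stand without a share of all regions, which was computed for the full lists only.

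**Figure D3:**
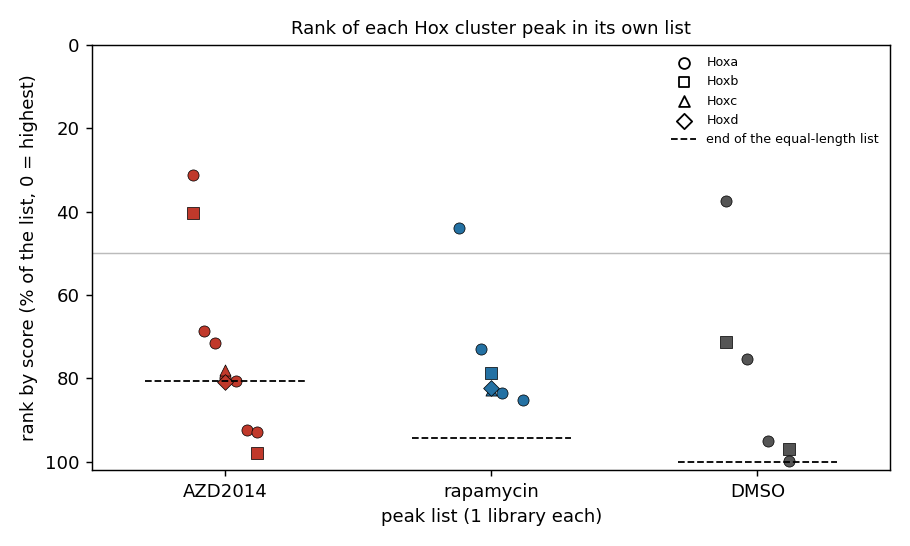
Rank by score of every Hox cluster peak within its own list (vertical axis, % of the list, highest scores at the top), for AZD2014, rapamycin and DMSO, with a marker shape per cluster. The dashed line is where the list ends when shortened to the length of the DMSO list. Above the 50% line lie 2 AZD2014 peaks, 1 rapamycin peak and 1 DMSO peak, and 4 AZD2014 peaks lie beyond the dashed line.

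The Hox peaks ranked low. The median rank was 80.0% of the list under AZD2014, 82.4% under rapamycin and 85.2% under DMSO. The order turned at equal list lengths, with medians of 88.7%, 87.4% and 85.2% for AZD2014, rapamycin and DMSO. Scores under 100 were held by 9 of 11 Hox peaks under AZD2014, 6 of 7 under rapamycin and 5 of 6 under DMSO. Over whole lists the shares under 100 were 38.7%, 40.4% and 40.9%. In the upper 50% of each list, 2 Hox peaks remained under AZD2014, 1 under rapamycin and 1 under DMSO.

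By paralog group, counts in the full lists differed as follows, beside 49.5%, 46.9% and 46% of all genes under AZD2014, rapamycin and DMSO. Of 11 genes in groups 1 to 4, 2 were marked under AZD2014 (Hoxa4 and Hoxb4), 3 under rapamycin (with Hoxa3) and 2 under DMSO. Of 11 genes in groups 5 to 8, 4 were marked under AZD2014 (Hoxa5 and Hoxa6 by a shared peak, Hoxa7 and Hoxc6), 1 under rapamycin (Hoxc6) and 0 under DMSO. Of 16 genes in groups 9 to 13, 2 were marked under AZD2014 (Hoxa9 and Hoxa10), 1 under rapamycin (Hoxa13) and 1 under DMSO (Hoxa9). These counts follow the number of the marked gene and not the place of the peak. The rapamycin peak that marked Hoxa3 lay between Hoxa6 and Hoxa7. So did a weak region of the AZD2014 and DMSO lists (52211479 to 52212053) that marked no gene. The middle of Hoxa thus held a peak in each list. At equal list lengths groups 5 to 8 had 3, 1 and 0 marked genes under AZD2014, rapamycin and DMSO. Of all genes, 47%, 46.3% and 46% were marked there. In the upper 50% of each list groups 5 to 8 had 0 in every list, and groups 1 to 4 had 2, 1 and 1. Of all genes, 40%, 36.5% and 34.8% were marked at that limit. Within Hoxb, both regions of any list lay in the Hoxb3 to Hoxb4 part, and the stretch with Hoxb5 to Hoxb13 held no peak.

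Some of these calls lay close to the limit of 1 kb. Just inside were Hoxc6 under both drugs and Hoxa9 under AZD2014, at the distances given above. The DMSO peak at the 3′ end of Hoxa9 was closer still to the limit, since it ended at 52222142 and the AZD2014 peak at 52222223. Just outside was Hoxa3 under AZD2014, with a peak 1014 bp from its end, and under DMSO, with one at 1121 bp. With gene ends of 500 bp the marked genes were 5 under AZD2014, 4 under rapamycin and 2 under DMSO, and Hoxa9 and Hoxc6 were marked in no list. With 2500 bp the marked genes were 10, 6 and 4. The share of all genes was not computed at these 2 widths, so the counts do not show how Hox genes stand to the background there.

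The distance from a cluster to the next peak varied by side. Beyond the Hoxa2 end of Hoxa, the next peak was the one at Hotairm1, 3.76 kb away under AZD2014 and 3.78 kb under rapamycin, and under DMSO it lay 149.2 kb away. Beyond the Hoxa13 end, the next peak lay 378.9 kb away under AZD2014 and 210.5 kb under each of rapamycin and DMSO. Under DMSO, no peak lay in a stretch of 430.3 kb that holds Hoxc, nor in one of 246.3 kb that holds Hoxd. Of the 8 nearest protein-coding neighbors, 1 on each side of each cluster, 5 were marked under AZD2014, 4 under rapamycin and 4 under DMSO. Evx1 beside Hoxa, Evx2 beside Hoxd and Ttll6 beside Hoxb had no gene-end peak in any list, and Skap1 on the far side of Hoxb had one under AZD2014 alone (score 65.86). Skap2, an adaptor protein gene 149.9 kb from Hoxa, scored 493.54 under AZD2014, 420.01 under rapamycin and 372.22 under DMSO. Mtx2, a mitochondrial import gene 60.7 kb from Hoxd, scored 168.79 under AZD2014, 117.21 under rapamycin and 150.92 under DMSO. Smug1, a DNA repair gene, and Calcoco1, on either side of Hoxc, were marked in all 3 lists as well.

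Most Hox start windows had no peak, the CpG-rich ones included. RefSeq start windows (250 bases before to 50 after a start) were at hand for 22 of the 38 genes, 24 windows in all. A peak overlapped 2 of them under AZD2014 (Hoxa5 and Hoxb4), 2 under rapamycin (Hoxa3 and Hoxa13) and 0 under DMSO. At Hoxb4 the rapamycin and DMSO peaks began 159 and 167 bp after the start, past the window. With 1 kb on either side of the start, marked genes were 4 under AZD2014, 3 under rapamycin and 2 under DMSO (Hoxa9 and Hoxb4). Hoxa4 had no such window, so these counts, the 0 under DMSO included, leave it out. Its high-coordinate end at 52191703 lay inside a peak in all 3 lists. The shares of the 24 Hox windows overlapped by a peak were 8.33% under AZD2014, 8.33% under rapamycin and 0% under DMSO. Over the 21263 windows of protein-coding genes the shares were 47.5%, 45.4% and 44%, and over all 32851 windows of the table they were 35%, 33.4% and 32.1%. The median ratio of observed to expected CpG was 0.626 in the Hox windows, 0.567 in windows of protein-coding genes and 0.384 in all windows. Windows with at least 55% GC and a CpG ratio of at least 0.6 were called CpG-rich, which held for 9 of the Hox windows (37.5%), against 41% of protein-coding and 30.3% of all windows. Of these 9, 1 was overlapped under AZD2014, 2 under rapamycin and 0 under DMSO. Of all 9950 CpG-rich windows, 80.7% were overlapped under AZD2014, 78.1% under rapamycin and 76.4% under DMSO.

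The CpG-rich windows that a drug peak overlapped were those of Hoxa5 (61.7% GC, CpG ratio 1.02), Hoxa3 (64% GC, ratio 0.657) and Hoxa13 (81% GC, ratio 0.918). Hoxd13, with 74.3% GC and a ratio of 0.904, is an example without a peak in any list. Each 300-base window was searched for 9 motifs on both strands. The GC box GGGCGG was in 10 of the 24 Hox windows (41.7%), a share below the 46.2% of protein-coding windows and above the 35.7% of all windows. In the Hoxa13 stretch printed above it occurred 5 times, of which 1 was on the opposite strand. The E-box CACGTG was in 5 Hox windows (20.8%) against 7.84% of protein-coding and 7.15% of all windows, namely those of Hoxd13, Hoxd11, Hoxd10, Hoxd4 and Hoxd1. All 5 were among the 20 Hox windows with no peak. The Meis site TGACAG was in 2 Hox windows (8.33%, against 18.7% of protein-coding and 19.2% of all windows), and one of them was that of Hoxa3, 13 bases before the start on the opposite strand. The Pbx and Hox site TGATTNAT was in 2 windows (8.33%, against 2.75% of protein-coding and 3.22% of all), the TATA box TATAAA in 4 (16.7%, against 12.6% and 13.6%) and TTTATNG, a site of Cdx and posterior Hox proteins, in 2 (8.33%, against 9.58% and 10.9%). The cAMP response element TGACGTCA, the ETS site ACCGGAAG and a retinoic acid response element (a direct repeat of AGGTCA with a spacer of 5 bases) were in 0 Hox windows, against 1.79%, 2.3% and 0.00913% of all.

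**Figure D4:**
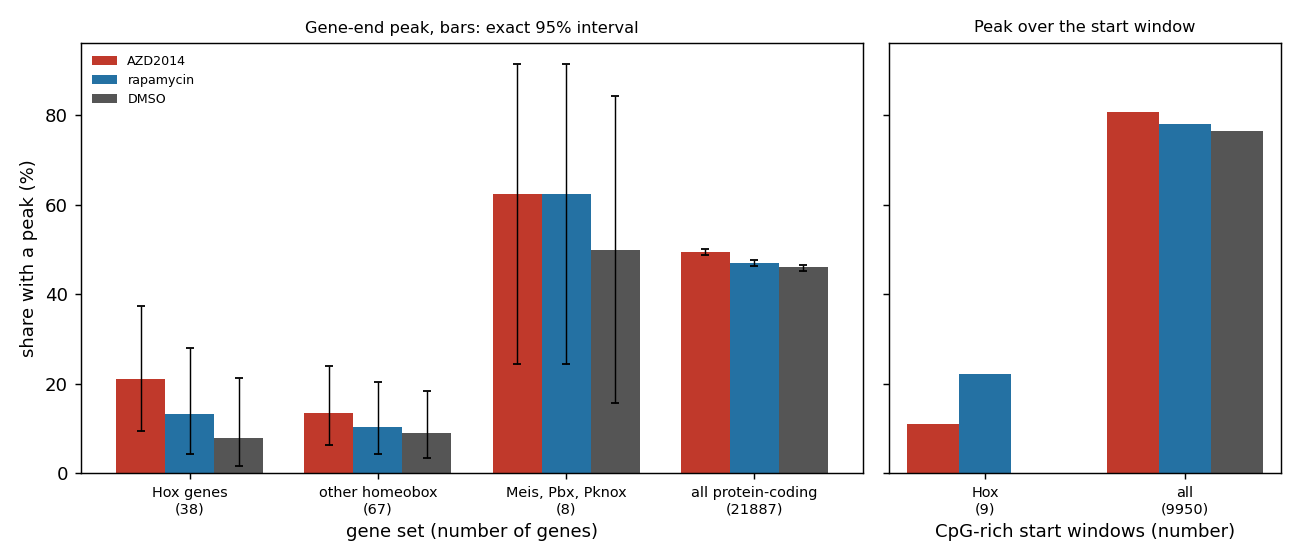
Left, share of genes with a gene-end peak (%) in 4 gene sets under AZD2014, rapamycin and DMSO, with exact 95% binomial intervals for counting error. Right, share of CpG-rich start windows overlapped by a peak, for Hox genes (9 windows) and all genes (9950 windows). Hox genes stand at 21.1%, 13.2% and 7.89%, near other homeobox genes and below all protein-coding genes.

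Other developmental homeobox and Pax genes showed a similar low share. Of 67 such genes, 9 were marked under AZD2014 (13.4%, interval 6.33 to 24.0), 7 under rapamycin (10.4%, 4.3 to 20.3) and 6 under DMSO (8.96%, 3.36 to 18.5). Each interval overlapped that of the Hox genes. Lhx6, Dlx2, Nkx2-4, Nkx2-2 and Msx1 were marked under AZD2014 alone, with scores from 50.93 to 67.6. Otx1 and Dlx4 were marked under rapamycin alone, Msx3 under DMSO alone, and Pitx3 under rapamycin and DMSO. At equal list lengths the numbers were 4 under AZD2014, 5 under rapamycin and 6 under DMSO, so the order of the lists turned there, which it did not for the Hox genes.

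Of 8 genes for the cofactors of Hox proteins, 5 were marked under AZD2014, 5 under rapamycin and 4 under DMSO, shares of 62.5%, 62.5% and 50% beside 49.5%, 46.9% and 46% of all genes. Meis1, the main Meis gene of HSCs, Pbx3, Pbx4 and Pknox1 were marked in all 3 lists, and Meis2, Meis3 and Pknox2 in none. Pbx2 was marked under both drugs (score 151.28 under AZD2014 and 101.83 under rapamycin) and not under DMSO.

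The genes that control Hox clusters were marked in most cases, beside 49.5%, 46.9% and 46% of all genes under AZD2014, rapamycin and DMSO. The shares were 94.1%, 94.1% and 88.2% for Polycomb genes and 76.5%, 70.6% and 70.6% for activators. The activator intervals were 50.1 to 93.2, 44.0 to 89.7 and 44.0 to 89.7. Those under rapamycin and DMSO included the share of all genes. Of 17 Polycomb genes, 16 were marked under AZD2014, 16 under rapamycin and 15 under DMSO, the difference being Ezh1, which encodes a histone H3K27 methyltransferase (score 191.68 under AZD2014 and 141.15 under rapamycin). Of 17 activators of Hox genes, 13 were marked under AZD2014, 12 under rapamycin and 12 under DMSO, with Kmt2a, Men1 and Dot1l in all 3 lists and Cdx1, Cdx2, Cdx4 and Rara in none. The difference was Mllt10, and it came from the limit of 1 kb: its AZD2014 peak lay 973 bp from the gene end, and overlapping rapamycin and DMSO peaks lay 1022 bp and 1114 bp from it. Of 5 genes for CTCF and cohesin, 4 were marked in each list (80%, interval 28.4 to 99.5, which included the share of all genes).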

How the data were processed

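ATAC-seq peaks of 3 libraries were used, 1 per condition, grouped by sample title. Per the labels' protocols, transposition took 30 min at 37 °C, followed by PCR and sequencing on a HiSeq 2500. CASAVA and the build mm10 come from the submitters' processing notes. The authors deposited 1 peak list per library, called per sample, with a score per peak. Peak names carry the word MACS. The sources used here do not give the aligner, caller settings, duplicate handling or read shift, which set how many weak peaks are listed. Read depth is unknown.

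Starts were written from 1. Gene positions came from RefSeq on GRCm38.p6, the assembly that mm10 names. All genes with an exact symbol in the gene list were matched. One further gene of the clusters and 3 genes of the comparison lists are not reported here. A gene end was a window reaching 1 kb out and 1 kb in, taken at both ends because that table holds no strand. Overlap of at least 1 bp counted. Strand and start windows came from the RefSeq promoter table. Peaks closest in rank were the 500 on either side in the list. No test across conditions was possible with 1 library each.

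The Hox genes, the gene lists and the settings were chosen with earlier results of these data known. Named genes were every Hox gene, the listed cofactors, regulators and homeobox genes whose status differed between lists, and the nearest neighbor genes. Other genes were named after their values were seen. Overlap code was tested on an altered copy of the DMSO list, with peaks removed at known gene ends and added at others. Python 3.11.15, numpy 2.4.6, pandas 2.3.3, scipy 1.17.1 and matplotlib 3.10.9 were used.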

Additional observations from a re-analysis of the deposited data

How the results depend on the processing

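Alternatives were tried for peak lists, windows, gene ends and overlap, with no test behind any value. Of 258 values recomputed under them, 185 stayed within 1.5 times the reported count (for ranks, within the range of the Hox peaks) and 73 moved further. The 3 differences in the number of marked Hox genes between lists kept their sign or, for rapamycin and DMSO in the upper 50%, became 0. The order of the median ranks did turn: it was 88.7%, 87.4% and 85.2% for AZD2014, rapamycin and DMSO at equal list lengths, and 71.5%, 88.1% and 75.0% in the upper 50%. No paired analysis was possible because there was 1 library per condition. Shares over all genes were computed only for gene ends of 1 kb and peaks at their listed width. Counts of marked genes at the other settings stand without that background.

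With equal list lengths the AZD2014 peaks in the 4 clusters fell to 7, regions found in 2 of 3 lists to 3, and the median share of higher-scoring peaks became 87.4% for rapamycin. In the upper 50% of each list the clusters held 2, 1 and 1 peaks under AZD2014, rapamycin and DMSO, and marked Hox genes were 2, 1 and 1. There, AZD2014 had 1 gene that DMSO lacked and 1 that rapamycin lacked (net 1 in each case), rapamycin had 0 that DMSO or AZD2014 lacked, DMSO had 0 that rapamycin lacked, and the net difference of rapamycin and DMSO was 0. Groups 1 to 4 had 2 genes under AZD2014, 1 under rapamycin and 1 under DMSO, so AZD2014 was there above rapamycin and not below it, groups 5 to 8 had 0 under AZD2014 and rapamycin, and groups 9 to 13 had 0 in every list. Regions in 1, 2 and 3 lists were 1, 0 and 1, and the median for rapamycin was 88.1%.

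With gene ends of 500 bp, 5 genes were marked under AZD2014, with 3 that DMSO and 3 that rapamycin lacked (net 3 and 1), and 0 under DMSO that rapamycin lacked. Groups 5 to 8 had 2 under AZD2014 and 0 under rapamycin, and groups 9 to 13 had 1 and, under DMSO, 0. With 2500 bp, 1 gene was marked under rapamycin and not AZD2014, and groups 5 to 8 had 2 under rapamycin. With the start alone (22 genes with a start in the table, Hoxa4 not among them) 4 genes were marked under AZD2014 and 3 under rapamycin. AZD2014 had 3 that DMSO and 3 that rapamycin lacked (net 2 and 1), DMSO had 1 that AZD2014 lacked, namely Hoxa9, and the net for rapamycin and DMSO was 1. There, groups 1 to 4 had 1 under AZD2014 and 1 under DMSO, groups 5 to 8 had 2 under AZD2014 and 0 under rapamycin, and groups 9 to 13 had 1 under AZD2014.

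With peaks set to 200 bp or their centre required in the gene end, DMSO had 0 genes that rapamycin lacked, groups 5 to 8 had 0 under rapamycin, and groups 9 to 13 had 1 under AZD2014 and 0 under DMSO. The unknown read depth limits every absence of a weak peak.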
